A study of Mus musculus with 6 samples.

Results

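This account describes the cyclins, the cyclin-dependent kinases (CDKs), the CDK inhibitors and their direct regulators in mouse CD4+ T cells exposed to NETs. NETs (neutrophil extracellular traps) are strands of chromatin, coated with granule proteins, that activated neutrophils throw out. Splenic cells of C57BL/6 mice, labelled as naive CD4+ T cells, were held for 72 h with CD3/CD28 beads, IL-2 and antibodies against interferon-gamma and IL-4, and received either NETs or vehicle, with 3 libraries of each. Both groups therefore share the stimulation, the cytokine and the blocking antibodies. The sources used here give neither the origin and dose of the NETs nor the age and sex of the animals. Whether the replicates are separate mice or cultures is not stated, and the p-values below therefore cover only the spread among these libraries, which may be technical.

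The genes were chosen by name among protein-coding rows of the deposited table: cyclins A, B, C, D, E, H, K, L and T, numbered CDKs, Cdkn genes with 1 exception, the pocket proteins, the Cdc25 phosphatases and Wee1. This gave 51 of the 54532 genes in the table: 17 cyclins, 18 CDKs, 9 Cdkn genes, 3 pocket proteins, 3 Cdc25 phosphatases and Wee1. Ccndbp1 and Ccnb1ip1, whose names open like those of cyclins but which code for other proteins, were not counted. Cdkn2aip and Cdkn2aipnl fit the name pattern and were kept, although they are named after a partner of an inhibitor and are not CDK inhibitors themselves.

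A naive T cell rests outside the cell cycle. Signals from the T cell receptor, CD28 and IL-2 raise D-type cyclins, which bind CDK4 and CDK6 and phosphorylate the retinoblastoma protein. That releases E2F factors, which raise cyclin E, and cyclin E with CDK2 then carries the cell into S phase, while cyclin A and cyclin B with CDK1 serve S phase and mitosis. INK4 inhibitors block CDK4 and CDK6, the Cip/Kip inhibitor p27 (Cdkn1b) restrains cyclin E with CDK2 and is high in resting T cells, Wee1 holds CDKs in check by phosphorylation, and Cdc25 phosphatases reverse it. Another branch of the family, with cyclins C, H, K, L and T, acts on RNA polymerase II and on splicing.

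Library totals lay between 15657622 and 18655997 reads, and these genes took between 0.592% and 0.628% of them. All 8 listed markers of CD4 T cells were tested, most of which, such as Cd3e and Lck, are shared with CD8 T cells. Their summed level was 3680 to 4250 CPM (read counts scaled to a common library size) with vehicle and 3650 to 3950 CPM with NETs. The 2 CD8 T cell markers summed to 18.4 to 20.8 CPM with vehicle and 13.0 to 19.5 CPM with NETs. The 5 B cell markers summed to 17.6 to 18.3 CPM with vehicle and 13.2 to 19.2 CPM with NETs. The 10 neutrophil markers summed to 1.68 to 3.26 CPM with vehicle and 4.02 to 5.22 CPM with NETs, with Ly6g at 0 reads. The 8 markers of monocytes, macrophages and dendritic cells, none of them at 0, summed to 26.4 to 37.5 CPM with vehicle and 38.0 to 47.7 CPM with NETs. The part of these sums in the differences below was not tested. On the first principal component of all genes, with 36.0% of the variance, vehicle replicate 3 (9.75) lay beside NETs replicate 2 (10.4) and beyond NETs replicate 3 (1.09), apart from vehicle replicates 1 (−14.6) and 2 (−32.1).

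The family was expressed broadly. Levels between genes are given as the deposited FPKM, reads scaled by gene length and by library size. Averaged over the 6 libraries, 41 of the 51 genes stood above 10 FPKM and 10 below 3 FPKM, with none between those bounds and the lowest of the 41, Wee1, at 14.3 FPKM. The D-type cyclins led the order with Ccnd2 at 378 FPKM and Ccnd3 at 325 FPKM, while the third, Ccnd1, stood at 0.427 FPKM, or 87 reads in all. The ranges of Ccnd2 (326 to 405 FPKM) and Ccnd3 (287 to 364 FPKM) overlapped. Next came the phosphatase Cdc25b at 215 FPKM, cyclin A2 (Ccna2) at 205 FPKM, Cdk4 at 180 FPKM and Rb1 at 152 FPKM. Of 50 pairs of neighbours in this order, 45 had overlapping ranges, so only broad differences in level can be read from it. The order also depends on the length used, and by reads per deposited gene length Ccnb2 ranked 1, Ccnd2 ranked 6 and Ccnd3 ranked 12.

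**Figure D1:**
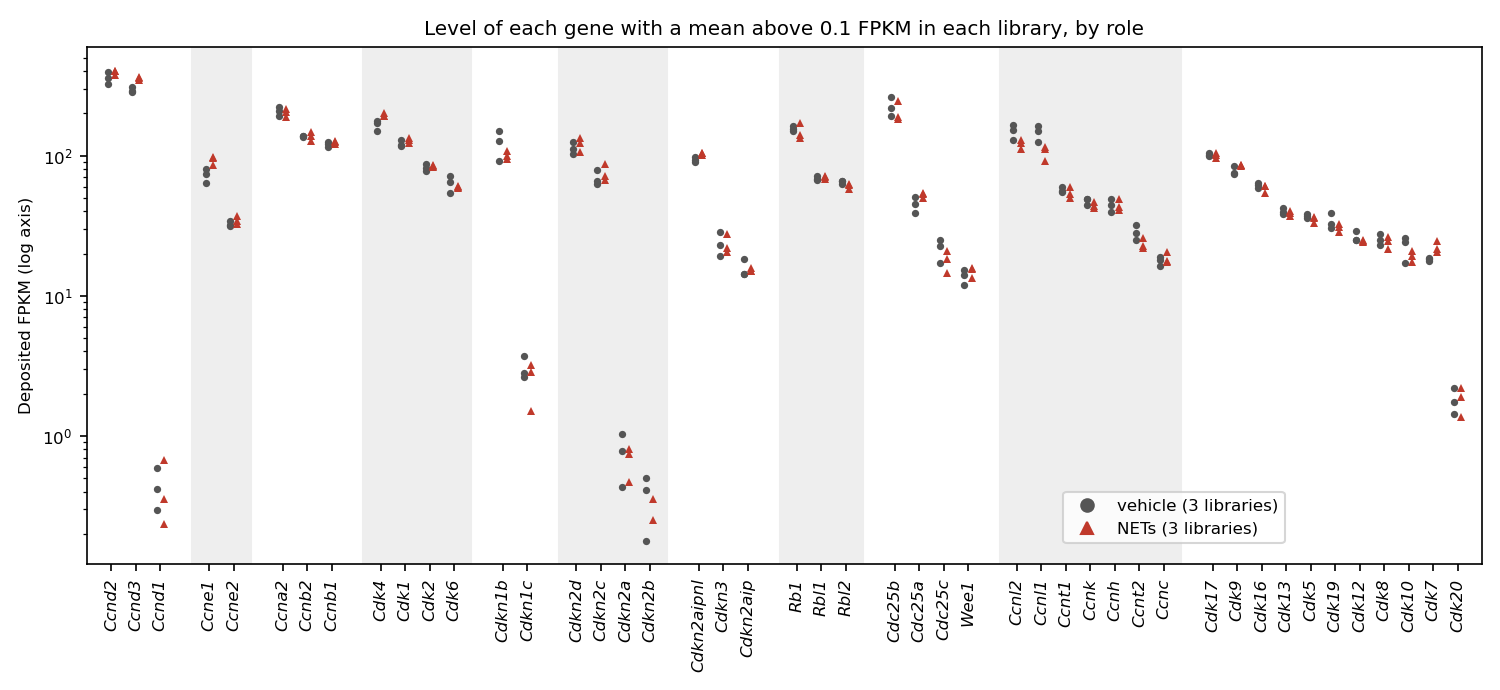
Deposited FPKM on a log axis for each gene with a mean above 0.1 FPKM, ordered by role and, within a role, by level; grey circles are the 3 vehicle libraries and red triangles the 3 NETs libraries, and shaded bands separate the roles. Cdkn2b in NETs replicate 3 is at 0 and has no point; Ccnd1, Cdkn1c, Cdkn2a, Cdkn2b and Cdk20 lie far below the rest of their roles.

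Several members of the family were at or near 0. Ccnb3 and Cdk15 had 0 reads in all 6 libraries, which allows up to 3 counts in all at this depth. Cyclin A1 (Ccna1), a germ-cell cyclin, had 2 reads, Cdk14 had 5 and Cdk18 had 11 over the 6 libraries. Of the INK4 inhibitors, Cdkn2a had 63 reads and Cdkn2b 41, whereas Cdkn2d (p19) averaged 117 FPKM and Cdkn2c (p18) 72.2 FPKM. Within the Cip/Kip genes described here, Cdkn1b averaged 112 FPKM and Cdkn1c 2.79 FPKM. The resting cells were not measured here, so none of these levels can be set against a state before stimulation.

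The comparison of NETs with vehicle asked which of these genes differed. With edgeR's quasi-likelihood test and Benjamini-Hochberg adjustment over 13900 genes, 0 of the 45 genes of the family that passed the filter on low counts had an adjusted p under 0.05, as did 0% of all genes tested. The smallest adjusted p in the family was 0.223. Before adjustment, p was under 0.05 for 8 of 45 (17.8%), against 12.8% of all genes tested. Of these, 5 were higher with NETs (11.1%, against 6.72% of all genes) and 3 were lower (6.67%, against 6.06%). Higher were Ccnd3, Ccne1, Cdk4, Cdc25a and Cdk7, and lower were the splicing cyclins Ccnl1 and Ccnl2 and the elongation cyclin Ccnt2. The median log2 fold change of the 45 genes was −0.02, beside 0.00 for all genes tested, with 21 above 0 and 24 below. In bulk RNA a larger share of cells in a phase and more RNA per cell cannot be told apart, here and for every gene below.

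**Figure D2:**
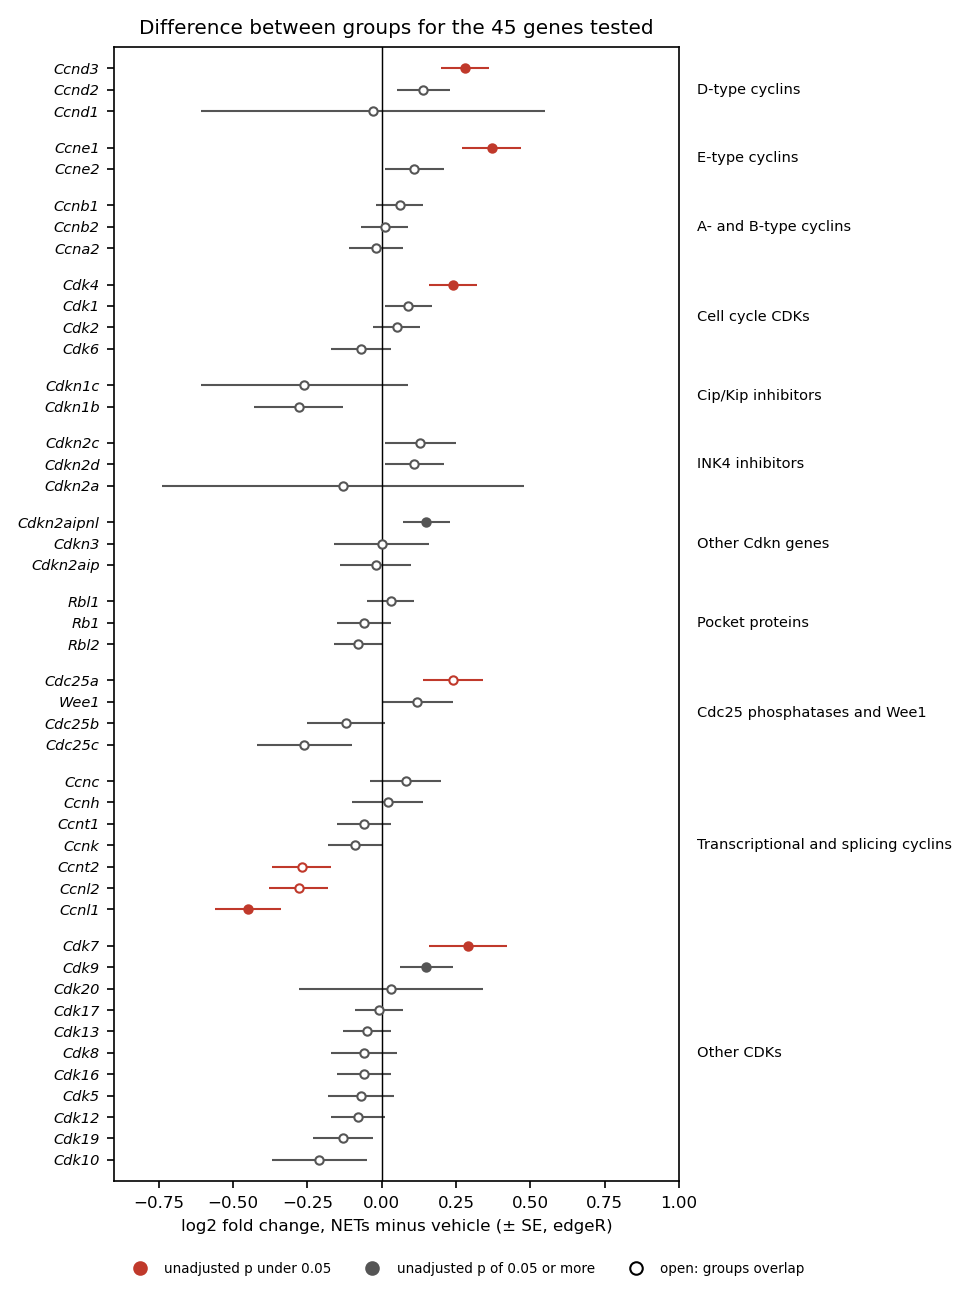
Log2 fold change of NETs over vehicle with its standard error (edgeR) for each of the 45 genes tested, by role; red marks an unadjusted p under 0.05, and a filled point marks a gene whose NETs libraries all lie above or all below the vehicle libraries. The 5 red points right of 0 are Ccnd3, Ccne1, Cdk4, Cdc25a and Cdk7, and the 3 left of 0 are Ccnt2, Ccnl2 and Ccnl1.

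The groups did not overlap in 7 of the 45 genes (15.6%), a share near the 16.6% of all genes. The 3 NETs libraries all lay above the 3 vehicle libraries in 6 of the 45 genes (13.3%, against 8.71% of all genes), namely Ccnd3, Ccne1, Cdk4, Cdk7, Cdk9 and Cdkn2aipnl. They all lay below in 1, Ccnl1 (2.22%, against 7.86%). Other tools and libraries moved the count of calls. DESeq2 called 2 genes of the family, Ccnd3 (log2 fold change 0.28, SE 0.08, adjusted p = 0.0457) upward and Ccnl1 (−0.46, SE 0.12, adjusted p = 0.0272) downward. It called 1.58% of the 8241 genes to which it gave an adjusted p, 0.752% upward and 0.825% downward. EdgeR with no filter on low counts called Ccne1 (adjusted p = 0.0317) upward and Ccnl1 (adjusted p = 9.39e-04) downward, beside 0.775% and 0.525% of all genes (1.30% in either direction). Limma-voom called 0 of the family and 0.00719% of all genes, which is 1 gene upward, and it gave 8 of the family an unadjusted p below 0.05. Without vehicle replicate 3, edgeR called 4 of the family and 2.81% of all genes: Ccne1 upward, beside 1.51% of all genes, and Ccnl1, Ccnl2 and Cdkn1b downward, beside 1.30%. With any other single library left out, edgeR called 0 of the family.

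Among the cyclins of G1 phase and of the entry into S phase, Ccnd3 and Ccne1 had an unadjusted p under 0.05, where 6.72% of all genes had one with a higher value in NETs, and none passed the adjusted threshold. With 3 D-type and 2 E-type genes, these counts are too small to set against that share. Values per library are CPM scaled by TMM factors, given for replicates 1 to 3 in order. Ccnd3, a D-type cyclin used by dividing lymphocytes (ENSMUSG00000034165; GRCm38 chromosome 17, 47505051 to 47599691), measured 334, 345 and 362 CPM with vehicle and 431, 409 and 425 CPM with NETs. All NETs libraries lay above all vehicle libraries. Means were 347 ± 14.0 CPM for vehicle and 422 ± 11.7 CPM for NETs (SD, n = 3 each). NETs were thus 1.22-fold higher, or 0.28 on the log2 scale (SE 0.08; edgeR adjusted p = 0.223). Bysl, which overlaps Ccnd3 on the other strand, had 2044 reads against 39636. Ccne1 (ENSMUSG00000002068; chromosome 7, 38097984 to 38107534), the cyclin that drives CDK2 at the G1/S boundary, measured 63.0, 55.7 and 69.1 CPM with vehicle and 84.8, 82.8 and 76.0 CPM with NETs. Here too the groups did not overlap, though NETs replicate 3 and vehicle replicate 3 came closest. It was 1.30-fold higher, or 0.37 on the log2 scale (SE 0.10, edgeR adjusted p = 0.223), and 0.45 without vehicle replicate 3 (edgeR adjusted p = 0.0341). With any other single library left out it was 0.30 to 0.42, with an edgeR adjusted p of 0.259 to 0.812.

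Their relatives overlapped between groups. Ccnd2, the most abundant of the family by FPKM, measured 580, 539 and 648 CPM with vehicle and 666, 657 and 625 CPM with NETs, so that vehicle replicate 3 lay within the NETs range (log2 fold change 0.14, SE 0.09; edgeR adjusted p = 0.508). Ccne2 was at 48.3, 48.7 and 51.8 CPM with vehicle and 52.9, 57.2 and 50.3 CPM with NETs, again with overlap (0.11, SE 0.10). Ints8, on the other strand, had 5809 reads against 5322 for Ccne2, and reads of the pair cannot be told apart where they overlap. Ccnd1 stood at −0.03 with an SE of 0.58, a width set by its few reads, and Oraov1, which overlaps it on the other strand, had 2464 reads against 87.

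Among the kinases of the cycle, Cdk4, the partner of D-type cyclins (ENSMUSG00000006728; chromosome 10, 127063534 to 127067920), measured 181, 163 and 187 CPM with vehicle and 216, 205 and 207 CPM with NETs. The groups did not overlap, and the NETs libraries were close to each other. The difference was 0.24 on the log2 scale (SE 0.08; edgeR adjusted p = 0.266), with means of 177 ± 12.8 and 209 ± 5.68 CPM (SD, n = 3 each). Tspan31, which overlaps Cdk4 on the other strand, had 3928 reads against 19973. Cdk6, which binds the same cyclins, stood at −0.07 (SE 0.10), with 188, 160 and 210 CPM for vehicle and 174, 179 and 180 CPM for NETs. Cdk2, the partner of cyclins E and A, stood at 0.05 (SE 0.08), and Cdk1, the kinase of mitosis, at 0.09 (SE 0.08).

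**Figure D3:**
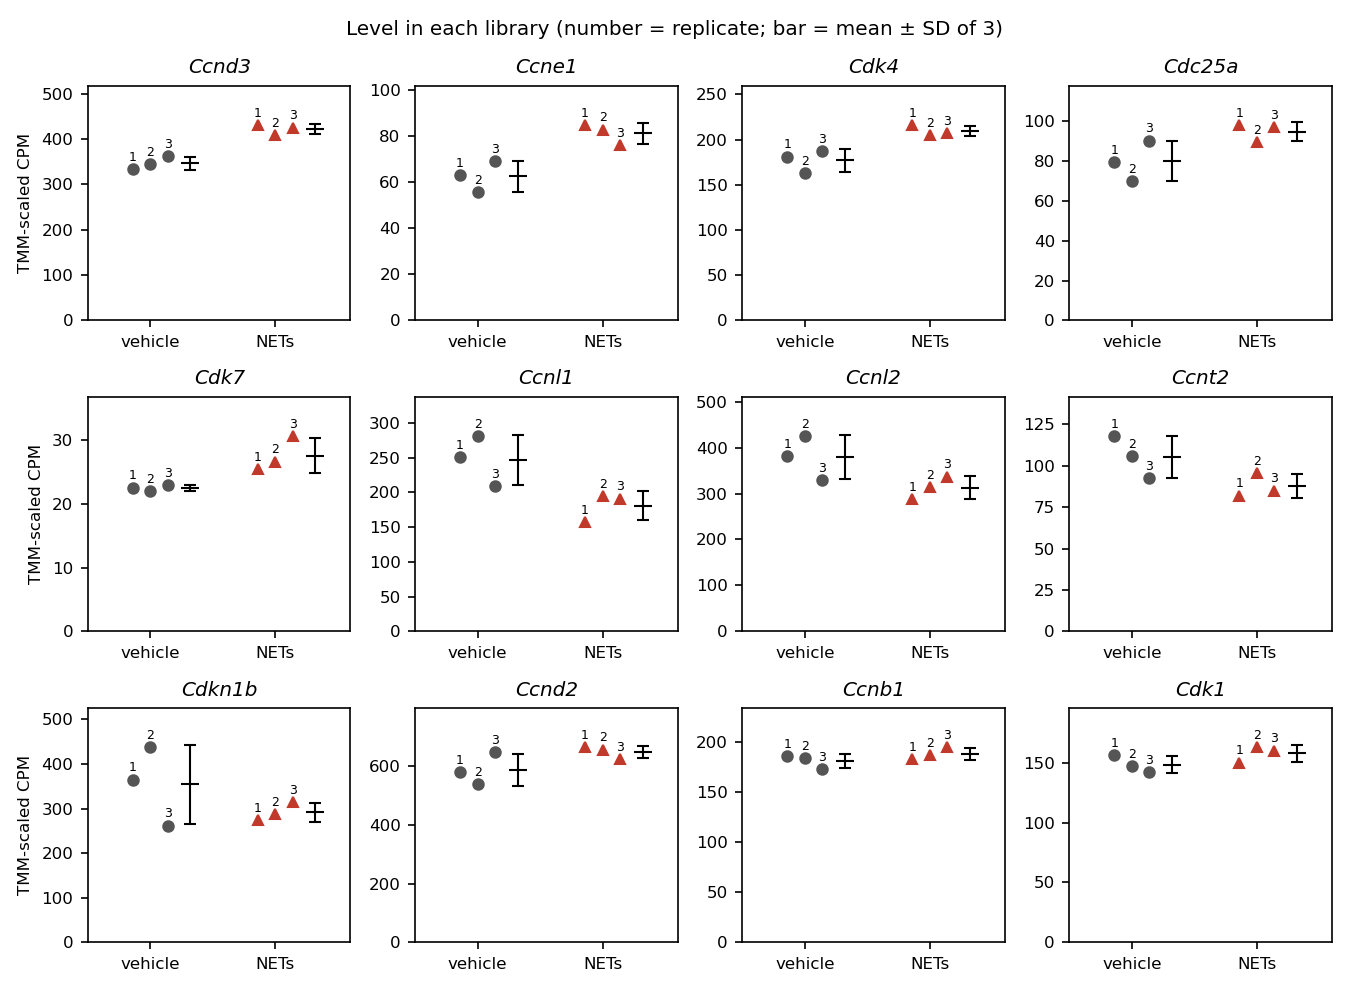
TMM-scaled CPM (linear axis from 0) in each library for 12 genes; the number beside a point is its replicate, and the bar at the side is the mean ± SD of 3 libraries. Ccnd3, Ccne1, Cdk4 and Cdk7 have all NETs libraries above all vehicle libraries and Ccnl1 has them below, while vehicle replicate 3 holds the lowest Cdkn1b value of the 6.

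Cyclins of S phase and mitosis lay near 0. Ccna2 measured 348, 382 and 325 CPM with vehicle and 322, 362 and 353 CPM with NETs (log2 fold change −0.02, SE 0.09). Ccnb1 stood at 0.06 (SE 0.08) and Ccnb2 at 0.01 (SE 0.08), and all 3 overlapped between groups. A p above the threshold does not show that these genes were alike in both groups, and whether the difference in Ccne1 exceeds that in Ccnb1 was not tested. Reads of near-identical retrocopies could add to the B-type cyclins, since Ccnb2-ps had 461 reads and Ccnb1-ps 47.

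To look at what the start regions of these genes hold, the 250 bases before the RefSeq start (build GRCm38.p6) were searched on both strands for 5 motifs. RefSeq windows were matched by symbol for 39 of the 51 genes. The E2F site was taken as TTTCCCGC, TTTCGCGC, TTTGCCGC or TTTGGCGC, the E-box bound by Myc-type factors as CACGTG, the CCAAT box as CCAAT, the cell cycle homology region (CHR) as TTTGAA and the FOXO site as TGTTTAC. An E2F site was found in 5 of 39 windows (12.8%), those of Cdc25a, Cdk1, Cdk2, Cdkn2a and Rbl1, against 1.91% of 27025 windows of all genes. An E-box was found in 15.4%, against 6.05%, a CCAAT box in 48.7%, against 34.5%, a CHR in 15.4%, against 16.3%, and a FOXO site in 2.56%, against 3.09%. A match is a run of letters and not a shown binding site. The 4 windows below set Cdk4 and Cdc25a, at an unadjusted p under 0.05, beside the mitotic genes Cdk1 and Ccnb2, which lay near 0. Capitals mark E-boxes in Cdk4, an E2F site and CCAAT boxes in Cdc25a, an E2F site, CCAAT boxes and a CHR in Cdk1, and CCAAT boxes and a CHR in Ccnb2, on either strand. No 2 matches overlapped. Bases that GENCODE places in an untranslated exon were left out, 1 for Cdk4 and 26 for Cdk1.
Cdk4, chr10:127063285-127063533, plus strand: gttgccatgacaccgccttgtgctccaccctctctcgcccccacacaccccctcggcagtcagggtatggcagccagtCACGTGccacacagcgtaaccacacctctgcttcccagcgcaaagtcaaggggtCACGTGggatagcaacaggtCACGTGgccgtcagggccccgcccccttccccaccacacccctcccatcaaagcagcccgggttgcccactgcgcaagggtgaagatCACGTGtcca
Cdc25a, chr9:109875329-109875578, plus strand: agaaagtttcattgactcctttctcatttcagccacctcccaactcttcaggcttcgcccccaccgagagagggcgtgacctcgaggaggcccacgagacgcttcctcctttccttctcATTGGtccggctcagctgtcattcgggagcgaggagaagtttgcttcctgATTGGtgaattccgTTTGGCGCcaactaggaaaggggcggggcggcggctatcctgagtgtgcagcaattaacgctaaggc
Cdk1, chr10:69352939-69353162, minus strand: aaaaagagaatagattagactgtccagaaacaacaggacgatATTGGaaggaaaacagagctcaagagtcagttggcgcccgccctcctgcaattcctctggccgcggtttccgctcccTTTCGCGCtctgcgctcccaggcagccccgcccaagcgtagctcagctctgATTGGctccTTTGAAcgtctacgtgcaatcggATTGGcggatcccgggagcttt
Ccnb2, chr9:70421555-70421804, minus strand: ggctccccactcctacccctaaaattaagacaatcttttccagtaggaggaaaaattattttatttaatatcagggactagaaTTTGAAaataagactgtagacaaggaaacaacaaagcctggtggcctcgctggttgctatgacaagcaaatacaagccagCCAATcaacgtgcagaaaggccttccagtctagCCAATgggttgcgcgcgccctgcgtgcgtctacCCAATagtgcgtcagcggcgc
The Cdk4 window held 4 E-boxes and none of the other motifs. The Ccnb2 and Cdk1 windows each held 3 CCAAT boxes and 1 CHR as printed, and the Cdc25a window held 1 E2F site and 2 CCAAT boxes. In its full 250 bases Cdk1 held 2 CHR matches, the other of them within the 26 bases left out. Among the other genes at an unadjusted p under 0.05, the windows of Ccne1 and Ccnl1 held none of the 5 motifs. Ccnd3 has 2 RefSeq windows: the first listed held only a FOXO site, and the other, which starts at 47593217, held only 1 CCAAT box. The window of Cdk7 held 1 E-box, that of Ccnl2 1 CCAAT box and that of Ccnt2 3 CCAAT boxes. Whether motifs go with the differences between groups was not tested.

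Among the inhibitors none passed the test, the Cip/Kip genes described here lay below 0 and the abundant INK4 genes above. Cdkn1b, coding for p27 (ENSMUSG00000003031; chromosome 6, 134920401 to 134925513), measured 365, 438 and 262 CPM with vehicle and 274, 287 and 315 CPM with NETs. Vehicle replicate 3 was the lowest of all 6 libraries, so the groups overlapped although vehicle replicates 1 and 2 exceeded every NETs library. The log2 fold change was −0.28 (SE 0.15; edgeR adjusted p = 0.452). Leaving out vehicle replicate 3 made it −0.46 (SE 0.10; edgeR adjusted p = 0.0278), and leaving out vehicle replicate 2 made it −0.10 (adjusted p = 0.880). The other Cip/Kip gene described here, Cdkn1c (p57), stood at −0.26 with an SE of 0.35.

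The INK4 genes overlapped between groups. Cdkn2d measured 125, 142 and 114 CPM with vehicle and 138, 120 and 152 CPM with NETs (log2 fold change 0.11, SE 0.10), and Cdkn2c stood at 0.13 (SE 0.12). Cdkn2a, whose 2 products from different reading frames a gene count cannot separate, stood at −0.13 with an SE of 0.61. Cdkn3, a phosphatase that acts on CDKs, stood at 0.00 (SE 0.16). Cdkn2aipnl, named for its likeness to a partner of the Cdkn2a product, measured 110, 115 and 120 CPM with vehicle and 125, 128 and 131 CPM with NETs. Its groups did not overlap, at 0.15 on the log2 scale (SE 0.08; edgeR adjusted p = 0.450), while Cdkn2aip stood at −0.02.

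The pocket proteins, which hold E2F factors in check, overlapped between groups. Rb1 measured 182, 178 and 190 CPM with vehicle and 168, 201 and 159 CPM with NETs (log2 fold change −0.06, SE 0.09). Rbl1 (p107) stood at 0.03 and Rbl2 (p130) at −0.08, each with an SE of 0.08.

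The phosphatases that activate CDKs did not pass the adjusted threshold. Cdc25a, which acts at the G1/S boundary (ENSMUSG00000032477; chromosome 9, 109875579 to 109893895), measured 79.7, 70.1 and 90.4 CPM with vehicle and 98.2, 89.6 and 97.0 CPM with NETs. Only vehicle replicate 3 reached into the NETs range (log2 fold change 0.24, SE 0.10; edgeR adjusted p = 0.335). Cdc25b, the most abundant of the 3, measured 287, 350 and 253 CPM with vehicle and 252, 241 and 327 CPM with NETs, with wide overlap (−0.12, SE 0.13). Cdc25c stood at −0.26 (SE 0.16) and the inhibitory kinase Wee1 at 0.12 (SE 0.12), and both overlapped between groups.

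Of the 7 cyclins of transcription and splicing, 5 lay below 0 and 3 of these had an unadjusted p under 0.05, where 6.06% of all genes had one with a lower value in NETs. Low values were not particular to them: of the 45 genes 24 lay below 0, and Cdkn1b (−0.28), Cdc25c (−0.26), Cdkn1c (−0.26) and Cdk10 (−0.21) were about as low as Ccnl2 and Ccnt2. Ccnl1, coding for cyclin L1, which acts with CDK11 in pre-mRNA splicing (ENSMUSG00000027829; chromosome 3, 65946151 to 65958249), measured 251, 281 and 209 CPM with vehicle and 157, 195 and 191 CPM with NETs. No NETs library reached a vehicle library, and NETs replicate 1 was the lowest. Its means were 247 ± 36.0 and 181 ± 20.9 CPM (SD, n = 3 each), which is 1.37-fold lower with NETs, or −0.45 on the log2 scale (SE 0.11; edgeR adjusted p = 0.223). An antisense gene, Gm37305, overlaps Ccnl1 with 498 reads against 22017, and since strand use is not stated, the reads of such pairs cannot be told apart.

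Its paralogue Ccnl2 measured 382, 425 and 329 CPM with vehicle and 287, 314 and 337 CPM with NETs. Vehicle replicate 3 lay below NETs replicate 3, so the groups overlapped (log2 fold change −0.28, SE 0.10; edgeR adjusted p = 0.277). Without vehicle replicate 3 the value was −0.37 (edgeR adjusted p = 0.0472), and that of Ccnl1 was −0.55 (adjusted p = 0.0220). With any other single library left out, edgeR called neither gene. Ccnt2, a cyclin of the elongation factor P-TEFb, measured 118, 106 and 92.4 CPM with vehicle and 81.9, 95.7 and 85.1 CPM with NETs (−0.27, SE 0.10; edgeR adjusted p = 0.305), with vehicle replicate 3 below NETs replicate 2. Ccnt1, which serves the same complex, stood at −0.06 (SE 0.09), and whether the 2 differ in their response was not tested. Ccnk, the partner of CDK12 and CDK13, stood at −0.09, Ccnh, the partner of CDK7, at 0.02 and Ccnc, of the Mediator kinase module, at 0.08. Ccnh overlaps Rasa1 on the other strand, which had 18168 reads against 4392.

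Of the kinases outside the core cycle, 11 of 14 were tested, with 3 above 0 and 8 below. Cdk7, the CDK-activating kinase that also serves TFIIH (ENSMUSG00000069089; chromosome 13, 100702631 to 100730939), measured 22.5, 22.0 and 22.9 CPM with vehicle and 25.4, 26.6 and 30.6 CPM with NETs. The vehicle libraries were nearly equal and all below the NETs libraries (log2 fold change 0.29, SE 0.13; edgeR adjusted p = 0.363). Cdk9, the kinase of P-TEFb, measured 94.7, 94.0 and 107 CPM with vehicle and 110, 107 and 110 CPM with NETs. Its groups were separate by a small margin between vehicle replicate 3 and NETs replicate 2 (0.15, SE 0.09; edgeR adjusted p = 0.482). Cdk17, the most abundant of these kinases by FPKM, measured 158, 165 and 157 CPM with vehicle and 152, 164 and 163 CPM with NETs (−0.01, SE 0.08). The transcriptional kinases Cdk12, Cdk13 and Cdk8 stood at −0.08, −0.05 and −0.06, Cdk19, the paralogue of Cdk8, at −0.13, Cdk10 at −0.21, Cdk5 at −0.07, Cdk16 at −0.06 and Cdk20 at 0.03, all with overlap between groups.

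Ratios between 2 genes within a library need no scaling between libraries, and 6 pairs were compared on the log2 FPKM scale. The Cdk4 to Cdk6 ratio was 1.41, 1.48 and 1.30 with vehicle and 1.78, 1.66 and 1.67 with NETs, with no overlap. The Ccne1 to Ccne2 ratio was 1.21, 1.01 and 1.24 with vehicle and 1.5, 1.36 and 1.42 with NETs, also with no overlap. Both pairs had a two-sided exact permutation p of 0.1, the smallest that 3 against 3 libraries can give, and an adjusted p of 0.24 over the 6 pairs. The Ccne1 to Cdkn1b ratio, of an activator to an inhibitor of CDK2, was −0.80, −1.24 and −0.18 with vehicle and 0.04, −0.06 and −0.32 with NETs, so that vehicle replicate 3 lay among the NETs libraries (exact permutation p = 0.2). The Ccnd2 to Ccnd3 ratio averaged 0.29 ± 0.10 with vehicle and 0.15 ± 0.06 with NETs, and the Rbl1 to Rbl2 ratio 0.09 ± 0.03 and 0.20 ± 0.09 (SD, n = 3 each; exact permutation p = 0.2 for both). The Ccnb1 to Ccnb2 ratio was −0.20 ± 0.05 and −0.15 ± 0.11 (exact permutation p = 0.6).

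**Figure D4:**
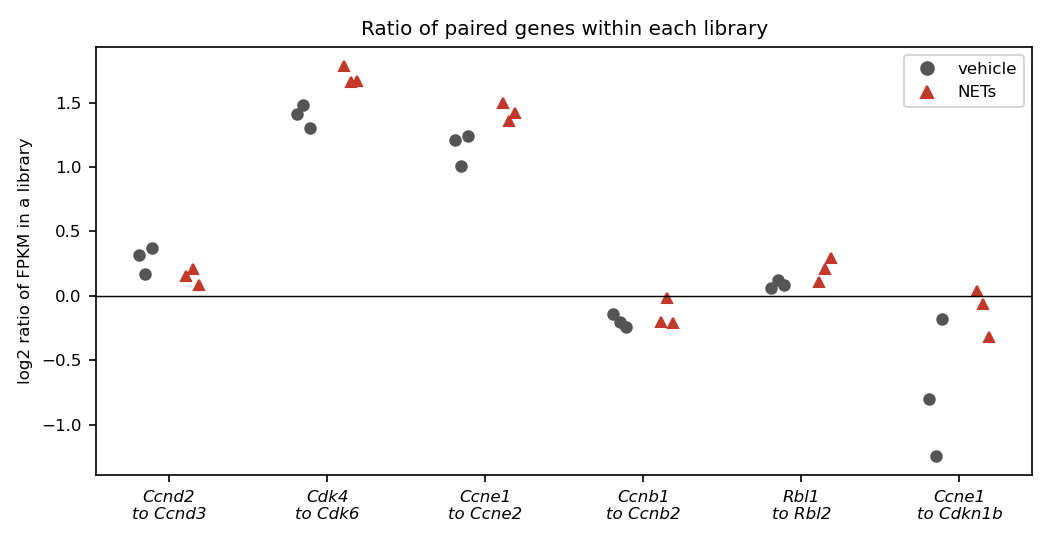
Log2 ratio of the deposited FPKM of 2 genes within each library, for 6 pairs; grey circles are vehicle libraries and red triangles NETs libraries, and the line marks equal FPKM. The groups do not overlap for Cdk4 to Cdk6 and for Ccne1 to Ccne2, and the vehicle libraries spread most for Ccne1 to Cdkn1b.

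The partners and targets of the family outside these 51 genes were read from lists, beside 12.8% of all genes at an unadjusted p under 0.05, 6.72% higher and 6.06% lower. Among 17 E2F and DREAM factors, 10 lay above 0 and 7 below, with a median of 0.06 and a range from −0.34 (E2f5, SE 0.29) to 0.40. EdgeR called 0, and 4 (23.5%) had an unadjusted p under 0.05, all higher with NETs: E2f2 (log2 fold change 0.22, SE 0.09), the activator E2f1 (0.40, SE 0.16), Mybl2 (0.29, SE 0.13) and Rbbp4 (0.21, SE 0.09). The groups did not overlap in 3 of the 17 (17.6%, near the 16.6% of all genes). These were E2f2, which was higher, and the repressor E2f7 (−0.19, SE 0.10) and the DREAM subunit Lin52 (−0.19, SE 0.14), which were lower. E2f5, E2f7 and Lin52 are named after their values were seen. Of 28 S phase genes, 27 lay above 0 with a median of 0.19, 0 were called and 11 (39.3%) had an unadjusted p under 0.05, all higher, led by the replication factor Gins2 (0.52, SE 0.14), the sliding clamp Pcna (0.35), the licensing factor Cdc6 (0.34) and the helicase subunit Mcm2 (0.40). Mitosis genes had a median of −0.06 with 16 of 25 below 0 and 0 called. Of the 25, 5 (20%) had an unadjusted p under 0.05, all lower, among them Anln (−0.42), Cenpe (−0.26), Cenpf (−0.27) and Kif23 (−0.24). The groups overlapped in all 25 mitosis genes (0% without overlap, against 16.6% of all genes). They did not overlap in 6 of the 28 S phase genes (21.4%), all higher with NETs, against 8.71% of all genes. The direction of the S phase and mitosis lists was known from earlier results of these data and is no independent evidence.

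Of 13 CDK adaptors and regulators tested, edgeR called 0 and 1 (7.69%, below the 12.8% of all genes) had an unadjusted p under 0.05, the CDK subunit Cks2 (log2 fold change 0.21, SE 0.09), with a median of 0.04. Cdc37, a chaperone partner of CDK4, stood at 0.15, Ccnf at 0.14 and Cks1b at 0.11. The groups did not overlap in 4 of the 13 (30.8%, above the 16.6% of all genes), namely Cks2, Cdc37, Ccnf and Cks1b. All 4 were higher with NETs, as were 8.71% of all genes. Of 28 genes of cyclin and inhibitor turnover, 0 were called and 2 (7.14%, also below that share) had an unadjusted p under 0.05, Anapc2 (0.22, SE 0.09) of the anaphase-promoting complex and Ddb1 (0.19, SE 0.08) of the CUL4 ligase. Anapc13 (0.26, SE 0.12) and the F-box protein Btrc (−0.26, SE 0.13) came next, and the list's median was 0.06. In this list the groups did not overlap in 5 of 28 genes (17.9%, near the 16.6% of all genes), 3 higher and 2 lower.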

How the data were processed

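RNA sequencing of 6 libraries, 3 with NETs and 3 with vehicle, was grouped by the treatment labels and numbered by the titles. The authors deposited unnormalized counts of reads for each Ensembl gene, as whole numbers in 2 tables with identical values. They also deposited FPKM, named so per the file headers, in which counts are scaled by a gene length and by sequencing depth. The submitters' processing notes name STAR, DESeq2 and build mm9; for versions, counting program, annotation release and strand use, the sources used here say nothing. Deposited coordinates equal those of GRCm38 for 98.0% of the 54532 genes and for 50 of the 51 genes described.

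Counts kept by edgeR's filterByExpr (13900 genes) were scaled by TMM and tested with edgeR 4.0.16 (robust quasi-likelihood, two-sided, group only) in R 4.3.3, with Benjamini-Hochberg adjustment over all genes tested and a threshold of 0.05. The test was tried on simulated counts, but no outcome is given here, so its error rate for these data is not shown. Biological coefficient of variation was 0.134 and the median SE of a log2 fold change 0.146. Alternatives used DESeq2 1.42.0, limma 3.58.1 (voom, and log2 of FPKM plus 0.1 or 1), other scalings and filters, a replicate block and leaving out each library. A gene with 0 reads was given a floor of 3 counts, for counting error only, since reads carry no molecular identifiers.

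All genes found by the name rule are named. Values in every library are given for those at an unadjusted p under 0.05, those whose groups do not overlap and the most abundant of each role, and 4 genes with the smallest p are named from each list. The genes and lists were chosen with earlier results of these data known. In the motif search each gene counts once, by its first listed RefSeq window.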

Additional observations from a re-analysis of the deposited data

How the results depend on the processing

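EdgeR called 0 of all genes and 0 of this family under DESeq2 size factors, library size alone, upper quartile factors, a mean CPM of at least 5 and the replicate block. Over all genes the count was 322 with no filter on low counts, 130 with DESeq2, 1 with limma-voom, and 2 with limma-trend on log2 FPKM plus either 0.1 or 1. Within the family it was 2 with no filter and 2 with DESeq2. Leaving out 1 library gave 0 to 405 calls over all genes and 0 to 4 in the family, with the highest counts without vehicle replicate 3. The count at an unadjusted p under 0.05 ranged from 5 (without replicate 1 or 2 of vehicle or replicate 1 of NETs, where 7.97%, 7.76% and 6.06% of all genes passed) to 14 (without vehicle replicate 3, where 20.5% did). The count without overlap ranged from 10 to 17 of 45 (22.2% to 37.8%), close to the 22.4% to 37.3% of all genes in the same fits. The median log2 fold change ranged from −0.04 to 0.02. The Ccnb1 to Ccnb2 difference, 0.05 in the ratio of FPKM, was −0.01 without NETs replicate 2 and ranged up to 0.08 when other libraries were left out; the cause was not tested. The differences of the other 5 ratios kept their direction. Of the 45 genes tested, 31 kept the sign of their log2 fold change in all these settings, among them the 8 at an unadjusted p under 0.05, and 14 changed it in at least 1. With the replicate block, 7 of the family had an unadjusted p under 0.05, beside 9.63% of all genes, and the median was −0.01. Deviations from the group means correlated at −0.04, −0.08 and −0.21 between libraries with the same number, so the shared numbers gave no sign of pairing. Genes under 100 reads in all, such as Ccnd1 and Cdkn2a, had an SE of 0.58 and 0.61, so only large differences could be seen there.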

Other observations

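The order of levels within the family depended on the gene length used. For 41 of the 51 genes the length behind the deposited FPKM was worked out, and it was 0.134 to 1 times the deposited gene length, with a median of 0.334. It was 0.134 for Ccnd3 and 0.174 for Ccnd2 and equal within 1% for Ccnb2. With reads per deposited length, Ccnb2 moved from rank 7 to rank 1, Ccnd2 from rank 1 to rank 6 and Ccnd3 from rank 2 to rank 12, and 17 of the 51 genes moved by more than 5 ranks. The ratio of Ccnd2 to Ccnd3 was 1.16 by FPKM and 1.51 by deposited length, that of Cdk4 to Cdk6 was 2.93 and 4.57, and that of Ccnb1 to Ccnb2 was 0.889 and 0.318, so these pairs kept their order on both scales while the sizes differed. Differences between NETs and vehicle do not depend on the length.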
